A study of Mus musculus with 10 samples.

Results

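The genes described here are 8 genes of lipid uptake, storage and sterol handling, *Lpl*, *Fabp5*, *Plin2*, *Abca1*, *Abcg1*, *Soat1*, *Lipa* and *Ch25h*. They were taken by name from a single-cell count matrix of 31053 genes, and 8 of 8 were found. Cells positive for CD45, the surface marker of blood-derived immune cells and of microglia, were sorted from whole brains and profiled by droplet sequencing of transcript 3' ends. The study asked whether Nlrp3, the sensor protein of an inflammasome, shapes the activation of microglia around amyloid. It compared WT mice, mice with a constitutive deletion of *Nlrp3* in every cell (Nlrp3KO), *APP/PS1* mice and Nlrp3KO *APP/PS1* mice. In *APP/PS1* mice, neurons of the brain make transgenic mutant APP (the Swedish form) and mutant human presenilin 1, and amyloid plaques form. WT and Nlrp3KO mice were collected at 3, 6 and 9 months, and both *APP/PS1* genotypes at 3 and 9 months. The 4 genotypes were littermates. The 10 libraries were 1 per genotype and age, and each pooled 3 mice (2 males and 1 female), so mice within a library cannot be told apart and a library counted as 1 sample.

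Microglia and other brain macrophages take up lipid from debris, myelin and lipoproteins, cut triglyceride and cholesteryl ester into fatty acids and free cholesterol, store the surplus as droplets and hand cholesterol back through membrane transporters. Lipoprotein lipase (*Lpl*) releases fatty acids from lipoprotein triglyceride, and *Fabp5* encodes a cytosolic protein that carries fatty acids. Perilipin 2 (*Plin2*) coats lipid droplets, acyl-CoA:cholesterol acyltransferase 1 (*Soat1*) esterifies cholesterol for storage, and lysosomal acid lipase (*Lipa*) cuts the esters that arrive in lysosomes. ABCA1 and ABCG1 export cholesterol to lipoprotein acceptors and are classical targets of the liver X receptors, which sense oxysterols, and *Ch25h* encodes cholesterol 25-hydroxylase, which makes the oxysterol 25-hydroxycholesterol. Genes of lipid handling, *Lpl* among them, are part of the known signature of disease-associated microglia.

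After the cells of libraries without a matching label were left out, 45472 cells remained, of which 40547 were annotated by the authors as microglia and 4925 as other CD45+ cells. The microglia carried 9357431 to 35107144 UMIs (unique molecular identifiers, each counting 1 captured transcript) per library, with a median of 3978 to 5985 UMIs per cell. Of 45225 distinct barcodes, 246 occurred in more than 1 library. *Nlrp3* had 390 to 1425 UMIs in the microglia of the 5 libraries with the gene and 0 in each of the 5 Nlrp3KO libraries. The authors named 6 microglial states, homeostatic microglia (HM, 31953 cells), transitioning microglia (TM, 2538), interferon-responsive microglia (IRM, 2271), immediate-early-gene microglia (IEG, 2094), disease-associated microglia (DAM, 901) and proliferating microglia (PM, 790). Border-associated macrophages, the macrophages of the brain's outer membranes and vessels, were annotated as BAM (725 cells) and BAM Lyve1 (382 cells). Levels are given as CPM, the UMIs of a gene scaled to the total UMIs of the same cells.

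In the mouse genome (build GRCm38, annotation GENCODE vM21) the members lie on 6 chromosomes. *Lpl* lies at chr8:68880491-68907448 on the plus strand, *Fabp5* at chr3:10012548-10016607 (plus) and *Abcg1* at chr17:31057675-31117988 (plus). *Plin2* (chr4:86648386-86670060), *Abca1* (chr4:53030787-53159895) and *Soat1* (chr1:156424525-156474331) lie on the minus strand. *Lipa* (chr19:34492318-34527474) and *Ch25h* (chr19:34473778-34475164) are neighbours on the minus strand of chromosome 19, 17.2 kb apart. The transcript of *Fabp5* aligns over 409 bases at 98.3% identity to the processed pseudogene *Gm6166* and over 408 bases at 97.3% to *Gm14328*, and that of *Plin2* over 259 bases at 96.1% to *Gm12551*. None of these 3 pseudogenes is a row of the matrix, so *Fabp5* and *Plin2* reads could have been lost to or gained from such copies, and their levels are uncertain to that extent. *Lpl*, *Abca1*, *Abcg1*, *Soat1*, *Lipa* and *Ch25h* had no such copy at 95% identity over 200 bases.

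Promoter sequence was given for 5 of the members (RefSeq, build GRCm38.p6). The 250 bases before the start of *Ch25h*, the member with the largest log2 fold change for amyloid in all microglia, are shown. Beside them stand those of its neighbour *Lipa*, which moved little in that comparison, and of *Abca1*, which was lower in DAM than in HM in 10 of 10 libraries. Each is printed 5′ to 3′ on the gene's own strand, the minus strand, at chr19:34475149-34475398 for *Ch25h*, chr19:34527475-34527724 for *Lipa* and chr4:53159896-53160145 for *Abca1*. Capitals mark matches to TATAAA or CACGTG.
Ch25h: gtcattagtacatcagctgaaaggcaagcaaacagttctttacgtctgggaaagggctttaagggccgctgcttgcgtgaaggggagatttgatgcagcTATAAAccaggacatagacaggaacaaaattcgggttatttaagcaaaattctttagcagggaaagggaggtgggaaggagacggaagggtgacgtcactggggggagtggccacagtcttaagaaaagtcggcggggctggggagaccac
Lipa: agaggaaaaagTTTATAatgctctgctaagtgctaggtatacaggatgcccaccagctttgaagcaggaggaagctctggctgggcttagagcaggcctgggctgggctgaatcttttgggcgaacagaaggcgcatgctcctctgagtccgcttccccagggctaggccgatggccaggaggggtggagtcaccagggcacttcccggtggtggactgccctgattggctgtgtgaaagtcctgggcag
Abca1: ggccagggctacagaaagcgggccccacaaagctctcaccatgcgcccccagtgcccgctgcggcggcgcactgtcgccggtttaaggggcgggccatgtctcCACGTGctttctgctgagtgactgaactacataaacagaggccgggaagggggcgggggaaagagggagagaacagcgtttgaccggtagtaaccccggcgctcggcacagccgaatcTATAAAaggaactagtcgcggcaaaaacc
On both strands, TATAAA (the TATA box) was found in these windows of *Ch25h*, *Lipa* and *Abca1* and in 12.4% of 32851 promoters of the same length. CACGTG (an E-box) was found in *Abca1* and in 6.02% of all promoters. The sterol regulatory element TCACNCCAC and the AP-1 site TGANTCA had no match in the windows of the 5 members, and 1.05% and 6.75% of all promoters held them. A match is a string of letters and not a measured site, and no match says only that these exact letters are not in the window.

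Over the 6 microglial states, some members had a narrow range of levels and others were found mainly in particular states. The states and types are clusters of the same cells, so the differences between them are descriptions without a test. The share of all genes that differ between states was not computed, so counts of libraries say nothing particular to the members. *Abcg1*, *Soat1* and *Lipa* were present in every microglial state, with pooled levels of 74.3 to 156 CPM, 90.5 to 127 CPM and 109 to 179 CPM. *Plin2* lay between 26.6 and 46.9 CPM across the 6 states. *Lpl* and *Fabp5* were low in HM and higher in DAM, and *Ch25h* was nearly absent from HM.

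**Figure D1:**
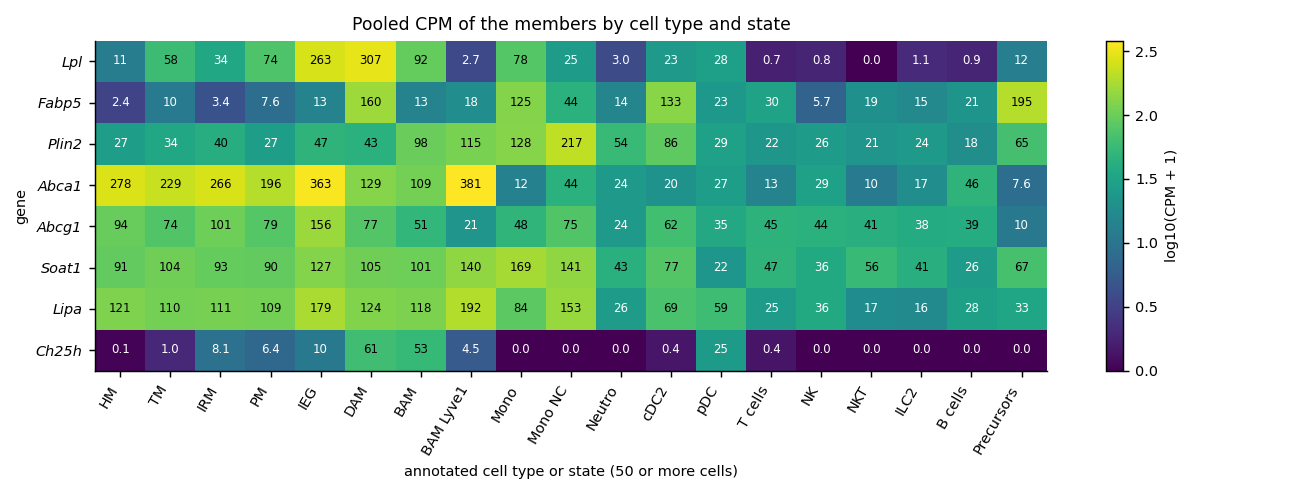
Pooled CPM (printed in each cell) of the 8 members (rows) in each annotated type or state with 50 or more cells (columns), coloured by log10(CPM + 1). *Lpl* stands highest in DAM and IEG, *Abca1* in BAM Lyve1, IEG and HM, *Plin2* in non-classical monocytes (Mono NC) and *Ch25h* in DAM and BAM.

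*Lpl*, the lipase of lipoprotein triglyceride, was at 11.1 CPM in HM, 34.3 in IRM, 57.9 in TM, 73.6 in PM, 263 in IEG and 307 in DAM. It was higher in each of the other 5 states than in HM in 10 of 10 libraries. The library means in IEG (279 ± 175 CPM, SD, n = 10) and DAM (232 ± 281 CPM, n = 10) did not differ beyond their spread, and their order turns with the weight given to each library. HM (10.4 ± 3.6 CPM, n = 10) lay above BAM Lyve1 (2.6 ± 3.8 CPM, n = 9) by more than the spread of both. BAM, in contrast, held 92.0 CPM.

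*Fabp5*, the fatty acid carrier, was at 2.41 CPM in HM, 3.45 in IRM, 7.57 in PM, 10.3 in TM, 13.4 in IEG and 159.6 in DAM. In DAM it was above HM in 9 of 10 libraries, the exception being the WT library of 9 months with 0 UMIs in DAM. Outside microglia it was at 125 CPM in 149 monocytes and 195 in 50 precursors. Type 2 conventional dendritic cells held a pooled 133 CPM, from 33 of 189 cells, but 10.04, 10.7 and 72.1 CPM in the 3 libraries with 20 or more of them. The 17 migratory dendritic cells held 2155 CPM, too few to compare over libraries. T cells held 29.7 CPM, more than each microglial state other than DAM.

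*Ch25h*, the source of 25-hydroxycholesterol, had 10 UMIs in 10 of 31953 HM (0.0682 CPM), against 354 UMIs in 111 of 901 DAM (61.0 CPM). By library the level in DAM ran from 0 to 109.9 CPM with a median of 1.42, and it was above that in HM in 5 of 10 libraries and below it in 4, each with 0 UMIs in DAM and 1 in HM. TM held 0.974 CPM, PM 6.41, IRM 8.14 and IEG 10.18. Among clusters outside the microglia with over 200 cells, BAM had the highest level, 52.7 CPM (273 UMIs in 98 of 725 cells). BAM Lyve1 held 4.52 CPM. The 23 UMIs of plasmacytoid dendritic cells came from 1 cell of 102.

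The cholesterol exporter *Abca1* ran the other way. It was at 278 CPM in HM, 266 in IRM, 229 in TM, 196 in PM and 129 in DAM, and at 363 in IEG. DAM lay below HM in 10 of 10 libraries, with a median difference of -0.99 on the log2 scale and a range from -1.82 to -0.02. How many of all genes lay lower in DAM than in HM was not computed. IEG lay above HM in 10 of 10 libraries, by a median of 0.31. *Abcg1*, the second exporter, was at 94.0 CPM in HM and 76.8 in DAM, and was higher in DAM than HM in 1 of 10 libraries.

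Both border macrophage clusters held the storage and lysosomal genes, at levels given here as a description, since the share of all genes that differ between the clusters was not computed. BAM Lyve1 held 381 CPM of *Abca1*, against 109 in BAM, with library ranges of 289 to 447 and 80.3 to 145. *Lpl* ranged from 0 to 10.95 CPM in BAM Lyve1 (9 libraries) and from 27.6 to 178 in BAM (10 libraries). *Ch25h* ranged from 0 to 14.9 CPM in BAM Lyve1 and from 20.8 to 76.7 in BAM. *Lipa* ranged from 164 to 235 CPM in BAM Lyve1 and from 77.8 to 143 in BAM, while *Soat1*, from 119.5 to 174 and from 84.0 to 119.03, nearly met. The second exporter, *Abcg1*, was lower in BAM Lyve1 (21.2 CPM pooled, 0 to 46.0 by library) than in BAM (50.6 CPM, 29.8 to 75.3). The markers *Mrc1*, *Pf4*, *Cd163*, *Lyve1*, *F13a1* and *Ms4a7* were all detected in both, with *Mrc1* at 554 CPM in BAM and 2687 in BAM Lyve1. BAM also held 159.8 CPM and BAM Lyve1 326 CPM of the microglial gene *P2ry12*. The microglial gene *Tmem119* ran the other way, at 144.9 CPM in BAM and 100.7 CPM in BAM Lyve1. The part of microglial RNA in the levels of both clusters was not tested. *Plin2*, the droplet coat, was at 98.0 CPM in BAM, 115 in BAM Lyve1, 128 in monocytes and 217 in non-classical monocytes.

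IEG microglia, the cells named for *Fos*, *Jun* and related genes, held high levels of *Lpl*. By library, *Fos*, *Jun*, *Atf3* and *Egr1* summed to 442 to 843 CPM in IEG and 221 to 498 CPM in HM. The DAM markers *Cst7*, *Itgax*, *Spp1*, *Csf1*, *Apoe* and *Axl* summed to 1093 to 3415 CPM in IEG and 264 to 587 CPM in HM. The pooled level in IEG over that in HM was 1.31 times for *Abca1*, 1.40 for *Soat1*, 1.48 for *Lipa*, 1.66 for *Abcg1*, 1.76 for *Plin2*, 5.58 for *Fabp5* and 23.7 for *Lpl*. The level was higher in 10 of 10 libraries for *Lpl*, *Fabp5*, *Plin2*, *Abca1*, *Abcg1* and *Lipa*, and in 9 of 10 for *Soat1* and *Ch25h*, but the share of all genes higher in IEG than in HM was not computed, so these counts say nothing particular to the members. *Ch25h* in IEG rested on 0 to 36 UMIs per library, and *Fabp5* went down to 2.48 CPM. The second annotation, made by the authors over all CD45+ cells, named 1118 of the 2094 IEG cells IEG, 531 HM and 355 DAM. *Lpl* was at 410 CPM in the first set, 25.1 in the second and 153 in the third. *Abca1* was at 413, 296 and 313 CPM in the same sets. The samples were dissociated for 4 h with actinomycin D, which limits transcription during that step, and the part of dissociation in these levels was not tested.

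**Figure D2:**
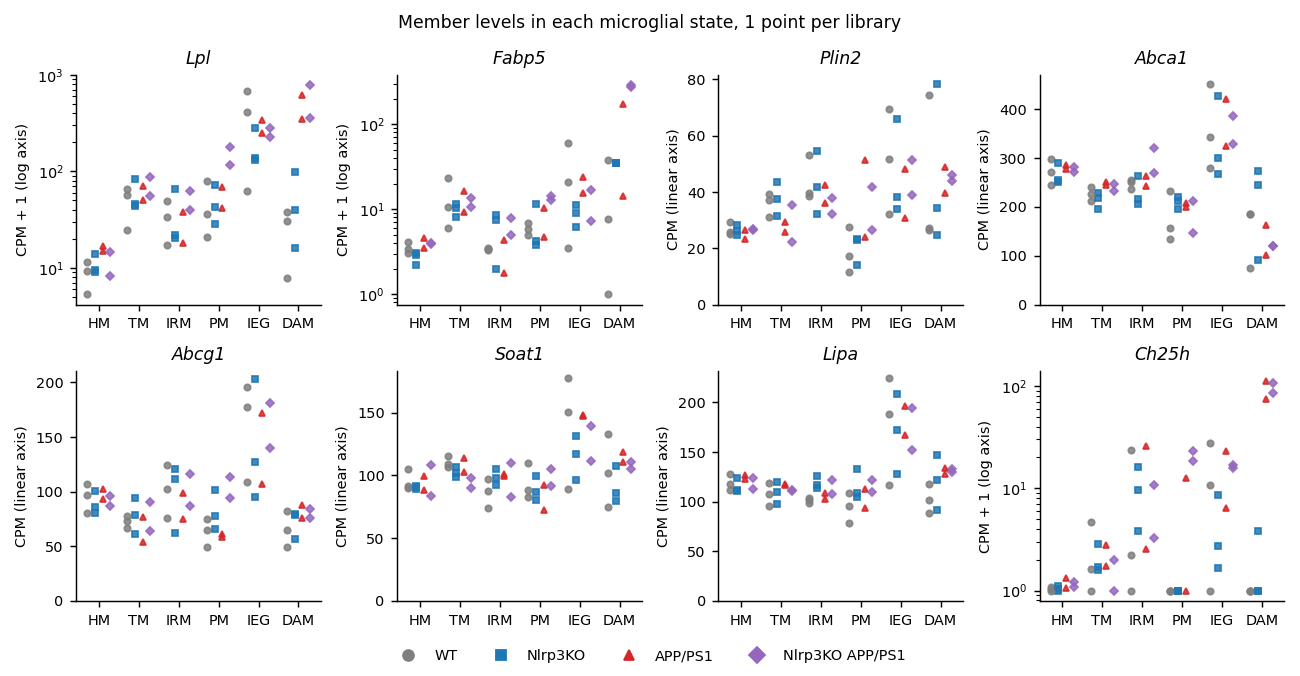
Level of each member (one panel each) in the 6 microglial states, with 1 point per library coloured by genotype. *Lpl*, *Fabp5* and *Ch25h* are drawn as CPM + 1 on a log axis and the others as CPM on a linear axis from 0. In DAM the *APP/PS1* points of *Lpl* and *Ch25h* lie above all non-diseased points, and in IEG the *Ch25h* points run from 0 upwards.

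Detection per cell was compared at 1 fixed depth. Each cell was thinned to 1500 UMIs. A *Lpl* UMI was then found in 15.1% of DAM (95% exact binomial interval 12.8 to 17.6%) and 1.57% of HM (1.44 to 1.71%). It was found in 0.0626% of T cells, which serve as the background for *Lpl* and *Ch25h*. In DAM the *Lpl* share was 0 to 5.45% in the 6 non-diseased and 13.8 to 43.4% in the 4 *APP/PS1* libraries. Without thinning, at median depths of 5726, 4366 and 5810 UMIs, the shares were 27.5%, 3.8% and 0.375%. *Ch25h* was detected in 5.11% of DAM (3.76 to 6.75%), 0.0125% of HM and 0.125% of T cells, so its share in HM was at background. *Fabp5* was detected in 8.66% of DAM (6.9 to 10.7%), 0.394% of HM and 3.5% of T cells. T cells held more *Fabp5* than each microglial state other than DAM, so they are no background for this gene. *Abca1* was detected in 16.6% of DAM (14.3 to 19.2%), 32.1% of HM (31.6 to 32.6%) and 1.25% of T cells. By library its share was 10.8 to 45.9% in DAM and 29.5 to 34.2% in HM, and DAM lay above HM in the Nlrp3KO libraries of 3 months (45.9 and 34.2%) and 6 months (30.5 and 29.9%). The shares in DAM of the non-diseased and the *APP/PS1* libraries were 0 to 6.45% and 4.17 to 16.9% for *Fabp5*, and 0 in all 6 and 5.53 to 10.8% for *Ch25h*. These intervals cover counting error only.

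Of the 901 DAM, 284 had a UMI of *Lpl*, *Fabp5* or *Ch25h* before thinning, and 63 had all 3. At 1500 UMIs, 26 of 46 DAM with *Ch25h* also had *Lpl* (56.5%), against 110 of 855 without it (12.9%). *Fabp5* was found in 20 of the 46 (43.5%) and in 58 of the 855 (6.78%). *Abca1* was found in 3 of the 46 (6.52%) and in 147 of the 855 (17.2%). The cells come from 10 libraries, and 353 of the 354 *Ch25h* UMIs in DAM come from *APP/PS1* libraries, so differences between mice and between cells of 1 mouse cannot be told apart in these counts.

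Summed over all microglia, *Ch25h* was called higher in *APP/PS1* mice, 1 of 8 members against 0.0407% of all 12282 genes tested (5 genes). The test was edgeR's quasi-likelihood test on counts summed per library, with the 4 pairs of the same age and *Nlrp3* genotype as a block. Calls needed both an absolute log2 fold change over 1 and a Benjamini-Hochberg adjusted p, over all genes tested, under 0.05. *Lpl* and *Fabp5* had log2 fold changes of 1.14 and 1.92 without passing, and those of the 5 other members lay within 0.06 of 0.

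*Ch25h* was at 0.464 CPM in WT and 0.215 in Nlrp3KO mice of 3 months, 1.235 and 1.216 at 6 months, and 1.59 and 0.929 at 9 months. It was at 1.83 in *APP/PS1* and 3.79 in Nlrp3KO *APP/PS1* mice of 3 months, and at 15.9 and 19.98 at 9 months. The groups did not overlap, and both *APP/PS1* libraries of 9 months stood far above the others. The fitted log2 fold change was 3.53 (SE 0.33, adjusted p = 0.0282 from edgeR). It was 3.41 without the Nlrp3KO pair of 3 months (adjusted p = 0.191 from edgeR), 3.13 without that of 9 months (adjusted p = 0.200), and 3.40 without cells of a doublet score over 0.5 (adjusted p = 0.0808). The call was lost in these 3 cases. Summed over all CD45+ cells, which include BAM, it was 1.76 (adjusted p = 0.0461 from edgeR).

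*Lpl* was at 31.4, 15.2 and 42.1 CPM in WT and 32.9, 25.8 and 20.2 CPM in Nlrp3KO mice of 3, 6 and 9 months. It was at 45.3 and 94.9 CPM in *APP/PS1* and 49.8 and 110.5 CPM in Nlrp3KO *APP/PS1* mice of 3 and 9 months. The *APP/PS1* libraries lay above all others, by little at 3 months. Within pairs the ratio was 1.44 (95% interval 1.31 to 1.58, counting error only) in mice with *Nlrp3* and 1.51 (1.40 to 1.64) in Nlrp3KO mice at 3 months, and 2.26 (2.02 to 2.52) and 5.47 (4.77 to 6.29) at 9 months. Its log2 fold change was 1.14 (SE 0.29), with an adjusted p = 0.404 from edgeR. Of all genes tested, 1.38% had every *APP/PS1* library above every non-diseased library of 3 and 9 months, as *Lpl* and *Ch25h* did.

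*Fabp5* was at 2.53 to 7.32 CPM in the 6 libraries of WT and Nlrp3KO mice. It was at 3.66 CPM in *APP/PS1* and 8.57 in Nlrp3KO *APP/PS1* mice of 3 months, and at 32.3 and 51.2 at 9 months. The groups overlapped through the *APP/PS1* library of 3 months, whose ratio to WT was 1.01 (0.741 to 1.37). The log2 fold change was 1.92 (SE 0.48, adjusted p = 0.392 from edgeR).

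The storage, hydrolysis and efflux genes stayed within a narrow range in the same libraries. *Plin2* ranged from 26.0 to 32.9 CPM over the 10 libraries, *Soat1* from 86.5 to 110.1, *Lipa* from 109 to 130, *Abca1* from 239.6 to 300.1 and *Abcg1* from 80.7 to 106. Their log2 fold changes for amyloid lay between -0.04 for *Abcg1* (SE 0.06) and 0.05 for *Lipa* (SE 0.05). The SE of *Plin2* was 0.11, of *Abca1* 0.05 and of *Soat1* 0.07. Of the neighbours on chromosome 19, *Ch25h* was called and *Lipa* was not, and the difference between them was not tested.

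**Figure D3:**
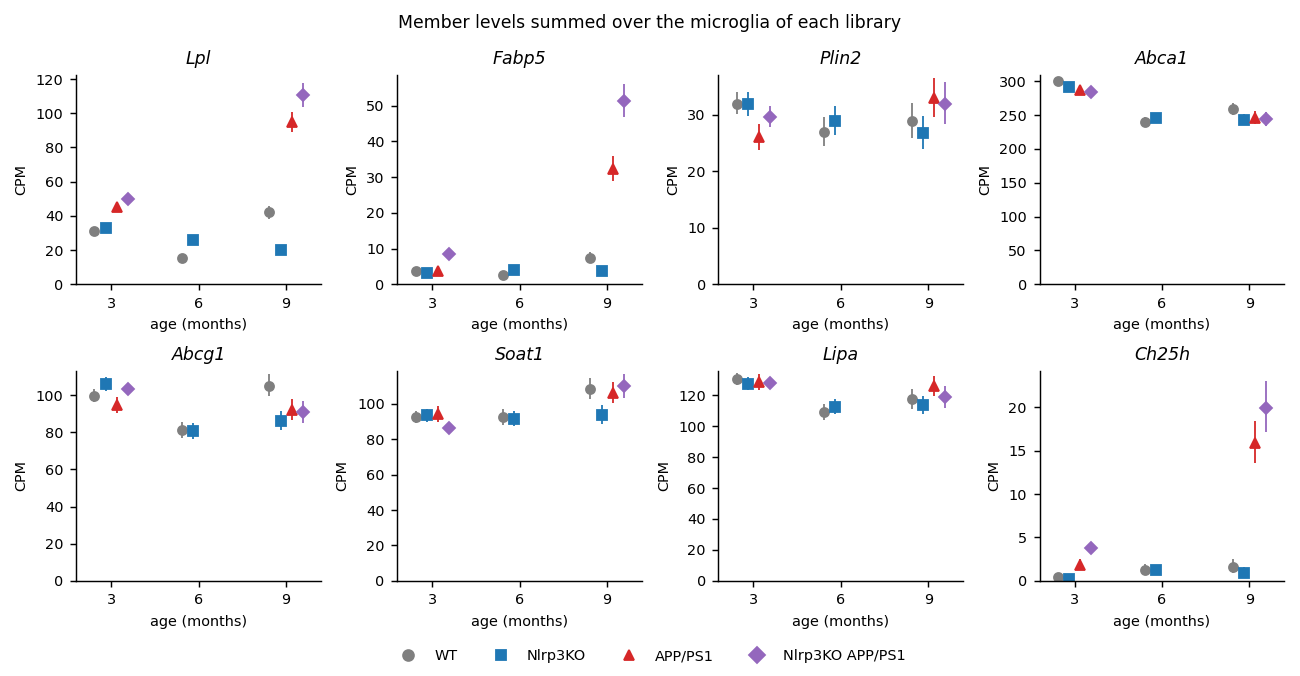
CPM of each member (one panel each) summed over the microglia of a library, against age in months, with 1 point per library and its 95% Poisson interval (counting error only), points of one age set apart sideways by genotype. *Lpl*, *Fabp5* and *Ch25h* are highest in both *APP/PS1* genotypes at 9 months, and the 5 other members lie close together.

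In bulk sums of this kind, more cells with a gene and more RNA per cell cannot be told apart, so the states were summed separately. DAM made up 11.7% and 11.5% of microglia in the *APP/PS1* and Nlrp3KO *APP/PS1* libraries of 9 months, and 0.431% to 3.79% in the other 8. DAM held 2.99% of all microglial UMIs, 3.0% of the *Lipa* UMIs and 1.4% of the *Abca1* UMIs, but 22.0% of *Lpl*, 55.9% of *Fabp5* and 56.7% of *Ch25h*. These pooled shares rest on the *APP/PS1* genotypes. In the 6 non-diseased libraries DAM held 0.419% to 7.30% of *Lpl*, 0% to 37.5% of *Fabp5* and 0% to 4.55% of *Ch25h*, the last from 1 UMI. At 3 months the shares in *APP/PS1* and Nlrp3KO *APP/PS1* mice were 16.0% and 27.2% for *Lpl*, 4.29% and 55.5% for *Fabp5* and 71.4% and 38.3% for *Ch25h*. At 9 months in *APP/PS1* mice DAM held 55.2% of the *Lpl* UMIs, 80.6% of *Fabp5* and 69.1% of *Ch25h*. The same shares in Nlrp3KO *APP/PS1* mice were 50.5%, 88.7% and 83.4%. IEG held more of *Lpl* than DAM did over all libraries pooled, 38.9%, with a range by library from 19.3% in WT mice of 6 months to 69.8% in WT mice of 9 months. In *APP/PS1* and Nlrp3KO *APP/PS1* mice of 9 months IEG held 24.7% and 27.1% of *Lpl*, less than DAM.

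**Figure D4:**
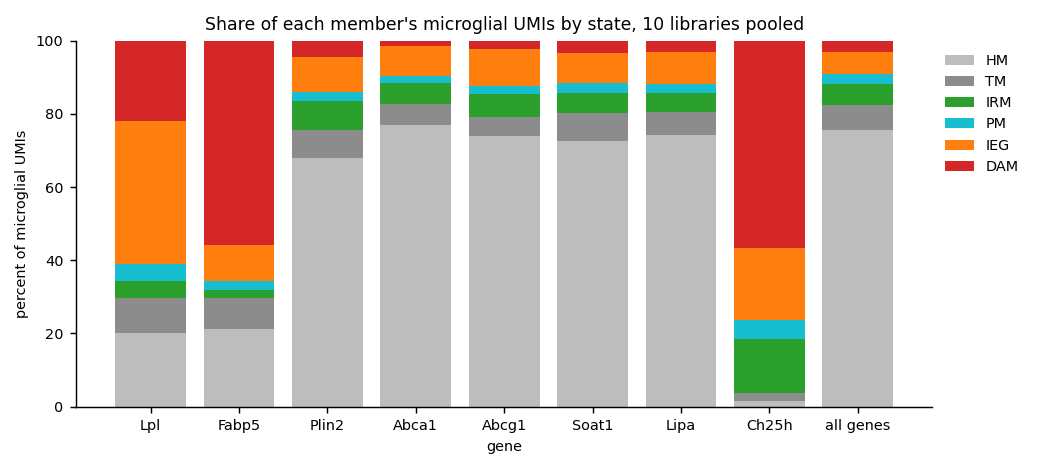
Percent of the microglial UMIs of each member, and of all genes, that lie in each microglial state, pooled over 10 libraries. DAM (top) hold over 55% of *Fabp5* and *Ch25h* UMIs, and HM (bottom) hold over 67% of the UMIs of *Plin2*, *Soat1*, *Lipa*, *Abcg1* and *Abca1*.

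Without the cells that either annotation named DAM, an alternative added after seeing the data, the log2 fold change for amyloid was 1.92 for *Ch25h* (adjusted p = 0.475 from edgeR), 0.45 for *Lpl* (adjusted p = 0.792) and 0.40 for *Fabp5* (adjusted p = 0.792). The states are clusters of the same counts, so a smaller value without DAM, or in HM alone, can follow from the grouping itself. Without the cells named DAM the *Lpl* ratio at 9 months was 0.928 (0.798 to 1.08) in mice with *Nlrp3* and 3.19 (2.71 to 3.75) in Nlrp3KO mice. Before that removal IEG held 333 of the 477 *Lpl* UMIs in the WT reference of 9 months, and 76 of 261 in the Nlrp3KO reference. In HM no member was called, and 0% of 11887 genes were (544 had an unadjusted p under 0.05, and DESeq2 called 0). *Lpl* in HM was at 12.6 ± 3.8 CPM (SD, n = 4) in *APP/PS1* and 9.0 ± 3.7 CPM (n = 4) in non-diseased libraries of 3 and 9 months. *Ch25h* in HM had 6 UMIs in the *APP/PS1* libraries and 4 in the others, too few for the fit.

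*Lpl*, *Fabp5* and *Ch25h* were called higher in DAM of *APP/PS1* mice than in DAM of non-diseased mice. Of all 6331 genes tested 2.83% were called, and 2.37% were called higher. *Lpl* was at 611 and 348 CPM in DAM of *APP/PS1* and 784 and 354 in DAM of Nlrp3KO *APP/PS1* mice at 3 and 9 months. In non-diseased DAM it was at 37.3, 29.7 and 6.83 CPM in WT and 39.2, 96.7 and 15.2 in Nlrp3KO mice of 3, 6 and 9 months. The groups did not overlap, as for *Ch25h* and for 3.74% of the genes tested in DAM between libraries of 3 and 9 months, and the log2 fold change over the 4 pairs was 4.67 (SE 0.23, adjusted p = 5.6e-13 from edgeR). In DAM as the second annotation names them it was 2.28 (adjusted p = 2.89e-07 from edgeR).

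*Ch25h* had 25, 51, 121 and 156 UMIs in DAM of the 4 *APP/PS1* libraries (72.9 to 109.9 CPM). It had 0 in each non-diseased library of 3 and 9 months, and 1 in the 6-month libraries. In DAM of *APP/PS1* mice *Ch25h* was at 88.9 CPM. This was 35.1 times the limit of 3 counts over the non-diseased DAM of 3 and 9 months (2.54 CPM). The limit takes UMIs as independent, but the 354 *Ch25h* UMIs in DAM lay in 111 cells, up to 16 in 1 cell. The ratio is therefore not a lower bound. It holds for this set of DAM and pools the libraries of each group. In DAM of the second annotation the fitted log2 fold change was 4.34. *Ch25h* passed the filter on low counts only through the *APP/PS1* libraries, so it had to differ and its call is not used as support. *Fabp5* was at 13.2 and 173 CPM in *APP/PS1* and 275 and 288 in Nlrp3KO *APP/PS1* DAM, and at 0 to 37.3 CPM in the 6 non-diseased libraries. The *APP/PS1* library of 3 months, with 3 *Fabp5* UMIs in 24 DAM, lay inside the non-diseased range. The log2 fold change was 3.20 (SE 0.38, adjusted p = 3.34e-06 from edgeR). DESeq2 gave an adjusted p to 3 of the 8 members, and called *Lpl* among them.

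The 5 other members were not called in DAM. *Lipa* had the largest log2 fold change of these, 0.46 (SE 0.19, adjusted p = 0.155 from edgeR), and *Abca1* had 0.01 (SE 0.21). *Abca1* in DAM was at 75.2 to 274 CPM in non-diseased and 101 to 163 CPM in *APP/PS1* libraries and the groups overlapped.

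Cells named DAM differed between the mice in more than these genes. Of the DAM markers *Cst7*, *Itgax*, *Spp1*, *Csf1*, *Apoe*, *Axl* and *Clec7a*, 6 were in the matrix and 6 were detected in DAM. Their summed level was 6319 to 16431 CPM in DAM of *APP/PS1* mice and 1090 to 5053 CPM in DAM of non-diseased mice. *Cst7*, a defining DAM gene, was at 848 to 2785 CPM in the first and 74.0 to 205 CPM in the second. *Spp1* reached 750 CPM in 1 non-diseased library. The 6 homeostatic markers summed to 16167 to 19708 CPM in DAM of *APP/PS1* mice and 20050 to 23766 CPM in the others. The non-diseased libraries held 31 to 102 DAM each and the *APP/PS1* libraries 24 to 253, and 12.6% to 22.8% of DAM in *APP/PS1* and 2.7% to 11.9% in non-diseased libraries had a doublet score over 0.5. The median UMIs per DAM were 6185 to 8018.5 in *APP/PS1* and 4691 to 5397 in non-diseased libraries. Markers of border macrophages summed to 8.79 to 41.2 CPM and 0 to 55.9 CPM, with *Lyve1* at 0, and those of monocytes to 4.94 to 39.2 CPM and 0 to 20.5 CPM. Single markers of these lists went both ways. The mean over libraries of *APP/PS1* and of non-diseased mice was 17.8 and 3.49 CPM for *Pf4* and 11.2 and 0 for *Ly6c2*, but 2.78 and 10.9 CPM for *Mrc1*, 5.73 and 6.31 for *Ccr2* and 4.15 and 5.16 for *Plac8*. The label DAM thus covered cells of unlike marker levels, and how much of the *Lpl*, *Fabp5* and *Ch25h* contrast goes with that was not tested.

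**Figure D5:**
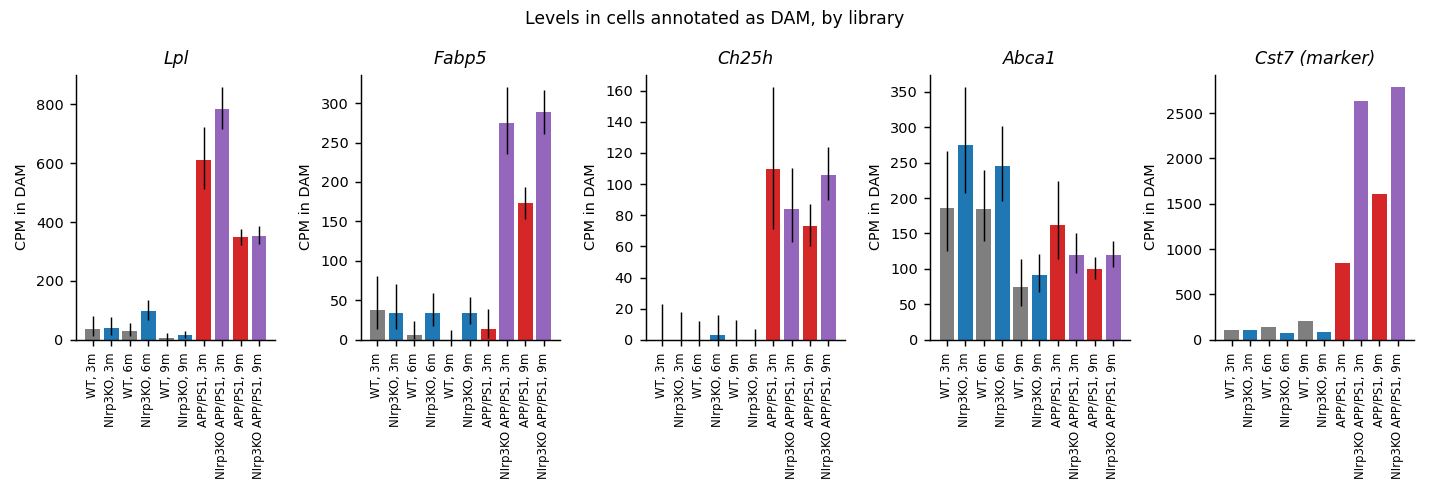
CPM in DAM of *Lpl*, *Fabp5*, *Ch25h*, *Abca1* and the DAM marker *Cst7* in each library (bars from 0, coloured by genotype), with 95% Poisson intervals (counting error only) for the members. *Lpl*, *Ch25h* and *Cst7* are high in all 4 *APP/PS1* libraries, *Fabp5* in 3 of them, and *Abca1* is highest in non-diseased mice of 3 and 6 months.

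Unlike in DAM, *Ch25h* was found in BAM of every library. It was at 20.8 to 76.7 CPM over the 10 libraries, with a median of 54.1. The level was 20.8 to 50.2 CPM in the *APP/PS1* libraries and 58.0 to 76.3 CPM in the non-diseased libraries of 3 and 9 months. At 6 months it was 76.7 CPM in WT and 30.1 CPM in Nlrp3KO mice. This difference in BAM was not tested, and the share of all genes that differ so was not computed.

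Whether amyloid acted differently by age or by *Nlrp3* was tested with interaction terms. No member was called in either, and 0% of 12282 genes were (601 genes had an unadjusted p under 0.05 for age and 446 for *Nlrp3*, and DESeq2 called 6 in each). The amyloid difference of *Lpl* was larger at 9 than at 3 months by 1.29 on the log2 scale (SE 0.37), and that of *Fabp5* by 2.16 (SE 0.63), both with an adjusted p = 0.880 from edgeR. *Plin2*, level over all pairs, differed by 0.50 (SE 0.12, adjusted p = 0.874 from edgeR). At 3 months it was at 26.0 CPM in *APP/PS1* and 32.0 in WT mice, and at 9 months at 32.9 and 28.8. The amyloid difference of *Ch25h* was larger in Nlrp3KO than in other mice by 1.54 (SE 0.55, adjusted p = 0.994 from edgeR).

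No member was called for deletion of *Nlrp3* in all microglia. Over the 5 pairs of the same age and amyloid background, 0 of 8 members were called, against 0.0242% of 12383 genes (3 genes), and 0 members had an unadjusted p under 0.05 (DESeq2 called 0 members). The log2 fold change was 0.39 for *Fabp5* (SE 0.26, adjusted p = 0.904 from edgeR), 0.27 for *Ch25h* (SE 0.26) and 0.05 for *Lpl* (SE 0.20). *Lpl* was higher in Nlrp3KO mice in 4 pairs and lower in the non-diseased pair of 9 months, where the ratio was 0.480 (0.412 to 0.560). In that pair IEG held 333 of the 477 *Lpl* UMIs in WT and 76 of 261 in Nlrp3KO mice. HM held 36 *Lpl* UMIs over 1803 cells in WT and 79 over 2105 cells in Nlrp3KO mice. For the 5 other members the log2 fold change lay between -0.05 (*Soat1*) and 0.04 (*Plin2*), each with an SE of 0.04 to 0.06.

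Among DAM, *Fabp5* was called higher in Nlrp3KO mice, 1 of 8 members against 0.121% of 5789 genes (7 genes). Here the log2 fold change was 1.44 (SE 0.29, adjusted p = 0.0173 from edgeR). The levels with and without *Nlrp3* were 37.3 and 34.3 CPM (3 months), 6.59 and 34.1 (6 months) and 0 and 34.3 (9 months) in non-diseased mice, and 13.2 and 275 (3 months) and 173 and 288 (9 months) in *APP/PS1* mice. In the non-diseased pairs these levels rested on 6 and 7, 2 and 12, and 0 and 18 UMIs, from 0 to 4 cells per library. In the *APP/PS1* pairs they rested on 3 and 167 UMIs (2 and 24 cells) at 3 months and 287 and 425 UMIs (41 and 63 cells) at 9 months. Nlrp3KO DAM were higher in 4 of 5 pairs, and the groups overlapped. Without the *APP/PS1* pair of 9 months the log2 fold change was 2.90 (adjusted p = 0.00053 from edgeR). The call was lost without the *APP/PS1* pair of 3 months (0.98, adjusted p = 0.134 from edgeR) and without the non-diseased pair of 9 months (1.37, adjusted p = 0.0558). It was also lost in DAM of the second annotation (1.07, adjusted p = 0.530), with additive covariates in place of pairs (1.41, adjusted p = 0.131), without cells of a doublet score over 0.5 (1.24, adjusted p = 0.227) and with DESeq2 (2.30, adjusted p = 0.9999).

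Age was tested between 3 and 9 months over the 4 genotypes, and since each age was 1 batch, age and batch cannot be told apart. *Fabp5* and *Ch25h* were called higher at 9 months, 2 of 8 members against 3.91% of 12282 genes (480 genes), or 3.28% called higher. The log2 fold change was 2.63 for *Ch25h* (SE 0.22, adjusted p = 0.00147 from edgeR) and 2.05 for *Fabp5* (SE 0.44, adjusted p = 0.0189). *Ch25h* was higher at 9 months by 3.42 times in WT (18 against 15 UMIs), 4.33 in Nlrp3KO (12 against 6 UMIs), 8.67 in *APP/PS1* and 5.28 in Nlrp3KO *APP/PS1* mice. *Fabp5* was higher by 2.02, 1.19, 8.82 and 5.97 times in the same genotypes. Without either *APP/PS1* pair the *Fabp5* call was lost, with adjusted p = 0.0900 and 0.105 from edgeR. *Soat1* differed by 0.27 (SE 0.07, adjusted p = 0.0389), below the fold limit, and *Abca1* by -0.15 (SE 0.05, adjusted p = 0.0686 from edgeR).

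Other genes of the same pathways, from 6 lists of 93 genes without the members, were read in the same fits. For amyloid in all microglia 0 of 78 tested genes were called and for *Nlrp3* deletion 0 of 80, and DESeq2 called 0 in both. Lists are described by their tested members and their median, beside a median of 0.00 over all genes in the amyloid fit and 0.01 in the *Nlrp3* fit. At an unadjusted p under 0.05 in the amyloid fit, 5.1% of all genes were higher and 2.38% lower. At the same limit 2 of 9 uptake genes were higher (median log2 fold change 0.07), 2 of 7 fatty acid genes (0.02), 1 of 12 lysosomal genes (0.01) and 3 of 17 efflux genes with 1 lower (0.02). Of 12 droplet genes 2 were lower (-0.04), and of 21 sterol synthesis genes 5 were higher and 1 lower (0.07).

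Genes with a small p in each list follow. Among uptake genes *Scarb1*, a scavenger receptor, had a log2 fold change of 0.15 (SE 0.06, adjusted p = 0.647 from edgeR). Among fatty acid genes *Fabp3*, a relative of *Fabp5*, was at 1.75 (SE 0.45, adjusted p = 0.404) and *Acsl3*, which activates fatty acids, at 0.46 (SE 0.14). Among droplet genes the triglyceride lipase *Pnpla2* was at -0.15 (SE 0.05) and *Lpin1* at -0.11 (SE 0.04). The lysosomal sterol carrier *Npc2* was at 0.18 (SE 0.08) and *Galc* at 0.15 (SE 0.07), the phospholipid remodelling enzyme *Lpcat3* at -0.16 (SE 0.05) and *Soat2* at 0.56 (SE 0.20). In sterol synthesis *Cyp51* was at 0.39 (SE 0.11, adjusted p = 0.492) and *Insig1*, which holds back sterol synthesis, at 0.34 (SE 0.10). None of these passed.

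With *Nlrp3* deletion the lists' medians lay between -0.03 (sterol synthesis) and 0.07 (fatty acid binding), and the unadjusted p was under 0.05 for *Fabp3* (0.45, SE 0.19) and *Scap* (-0.11, SE 0.04), while 2.47% of all genes were higher and 2.16% lower at that limit. The genes of smallest p in the other lists were *Msr1* (0.33, SE 0.18) and *Olr1* (0.58, SE 0.42), both scavenger receptors, *Abhd5* (-0.10, SE 0.06) and *Lpin1* (-0.06, SE 0.04), *Npc2* (0.06, SE 0.04) and *Pla2g15* (-0.04, SE 0.04), and *Nceh1* (0.16, SE 0.10) and *Srebf1* (0.12, SE 0.07). *Acot9* (0.09, SE 0.06) and *Nsdhl* (0.14, SE 0.07) came next to *Fabp3* and *Scap*. The adjusted p was 0.904 or more for each, from edgeR.

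In DAM, 8 of 47 tested pathway genes were called higher in *APP/PS1* mice, against 2.37% of all genes tested, and DESeq2 called 1. They were *Scarb1* (1.46, SE 0.33), *Fabp3* (3.38, SE 0.53), the lysosomal genes *Npc2* (1.11, SE 0.15) and *Galc* (1.21, SE 0.32), the desaturase *Scd2* (1.998, SE 0.27), the cholesteryl ester hydrolase *Nceh1* (2.30, SE 0.33), and the sterol synthesis genes *Cyp51* (2.15, SE 0.53) and *Sc5d* (1.59, SE 0.36). Their adjusted p-values from edgeR lay between 1.65e-05 (*Npc2*) and 0.02 (*Galc*). No gene of the 6 tested on the droplet list was among them. In non-diseased DAM of 3 and 9 months, *Fabp3*, *Cyp51* and *Sc5d* reached the level of the filter on low counts (24.4 CPM) in 0 of 4 libraries and *Scarb1* in 1, so these passed it through the *APP/PS1* libraries and the count of 8 is not used as support. With the age difference, *Fabp3* was the 1 pathway gene of 78 called (1.76, SE 0.45, adjusted p = 0.0335 from edgeR), while 3.28% of all genes were called higher.

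Genes whose level followed a member most closely over the microglia of the 10 libraries are given as a description. The measure was Pearson's r of log2 CPM (prior count 2) against 12382 other genes, over libraries that share ages and genotypes. *Fabp5* was most like *Syngr1* (r = 0.99), *C030034L19Rik* (0.99) and *Cst7* (0.98), and *Ch25h* like *Spn*, *Plxnd1* (both 0.97) and *Cst7* (0.96). *Lpl* was most like *Parp9* (0.98), *Rab7b* and *Gas7* (both 0.97). *Abca1* was most like *Arl8b*, *Calu* and *Lhfpl2* (0.95 to 0.96), and *Soat1* like *Tma7*, *Rps23* and *Rps18* (0.96 to 0.97). *Plin2* was most like *Calr* (0.96), *Brdt* (0.95) and *Hexa* (0.90), *Abcg1* like *L3mbtl2* (0.90) and *Gm26879* (0.89), and *Lipa* like *Tex12* (0.94) and *Gpr162* (0.93). Among the members, r was 0.92 between *Lpl* and *Fabp5*, 0.92 between *Fabp5* and *Ch25h* and 0.81 between *Lpl* and *Ch25h*, and it was -0.34 between *Abca1* and *Ch25h*.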

How the data were processed

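CD45+ cells of 10 libraries were sequenced as 10x Genomics 3' libraries. The authors aligned reads to mm10 with Cell Ranger, removed outlier cells and deposited UMI counts per gene and cell, with 2 annotations, a doublet score per cell and the percent of mitochondrial counts per cell. The matrix held 52369 cells; 6897 cells of 2 further library names matched no label and were not used. Counts were summed per library and cell set. Genes were filtered with filterByExpr, scaled by TMM and tested with edgeR 4.0.16 (quasi-likelihood test, pairs as blocks, Benjamini-Hochberg over all genes). Residual spread is that between pooled libraries. Each SE is the absolute log2 fold change divided by the square root of the test's F statistic. It uses a spread moderated over all genes and is not the SE of a gene's own pairs. DESeq2 1.42.0, DESeq2 size factors, no filter, additive covariates, each pair left out, adjusted p alone, all CD45+ cells, the second annotation, equal library weights and removal of cells with a doublet score over 0.5 were the alternatives. The fits were tested on simulated data. UMI intervals are exact Poisson (levels), binomial (shares) or conditional binomial (ratios), at 95%. Cells were thinned to 1500 UMIs, and a library entered a type's spread with 20 cells of it. Transcripts were aligned with BLAST 2.17.0. The members and lists were chosen with earlier results of these data known. Named genes are the members, pathway genes called in a comparison or else the 2 of smallest p in a list, and the 3 genes most like each member. Of the genes this rule names, 3 are not reported here. UMIs count 3' ends, so levels do not scale with gene length. Doublets were not removed in the main fits. R 4.3.3 and scipy 1.17.1 were used.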

Additional observations from a re-analysis of the deposited data

Results flagged for a closer look

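A library far from the others of its kind was looked for among the 4 *APP/PS1* and the 6 non-diseased libraries, for each member in all microglia and in DAM (32 groups, of which chance flags about 1 in 20), by Dixon's 95% limit. In 4 groups 1 library stood apart. *Lpl* in DAM was at 96.7 CPM in the Nlrp3KO library of 6 months, with the next non-diseased library at 39.2 CPM. *Ch25h* in DAM was at 2.85 CPM in the same library, from 1 UMI, with the other 5 at 0. *Fabp5* in all microglia was at 7.32 CPM in the WT library of 9 months, against 4.04 CPM in the next. *Soat1* in all microglia was at 109 CPM (108.7) in the same WT library, against 93.9 CPM in the next. No member passed the tests of whether the amyloid difference differed by age or by *Nlrp3*.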

How the results depend on the processing

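For amyloid in all microglia the count of members called (1) was 1 with DESeq2, 0 without cells of a doublet score over 0.5 and 0 without cells named DAM, and 0 to 1 with 1 pair left out (0 without the Nlrp3KO pair of 3 or of 9 months). For age the count (2) was 1 to 2 with 1 genotype left out. For amyloid in DAM the count (3) was 1 with DESeq2, which gave an adjusted p to 3 members. For *Nlrp3* deletion in DAM the count (1) was 0 with DESeq2, with additive covariates, without cells of a doublet score over 0.5 and in DAM of the second annotation, and 0 to 1 with 1 pair left out. The causes were not tested, except that leaving out a pair or DAM leaves fewer samples or cells. Over all genes, 5 were called for amyloid, against 22 with DESeq2, 302 over all CD45+ cells, 1 without cells named DAM and 0 to 11 with 1 pair left out. In DAM 179 were called for amyloid, against 46 with DESeq2, 273 with no filter on low counts and 78 in the second annotation. For *Nlrp3* deletion 3 were called, against 6 with DESeq2 and 8 without the non-diseased pair of 9 months, and in DAM 7, against 2 with DESeq2, 4 with additive covariates, 24 with no filter and 3 to 20 with 1 pair left out. For age 480 were called, against 246 and 250 without either *APP/PS1* genotype, and for amyloid in HM 0, against 3 and 4 without the WT pair of 3 or 9 months. Of the alternative log2 fold changes of single members, 525 stayed on their side of the threshold and 12 lost the call. The 525 include members not called in the main fit, and fits without an adjusted p were not counted. The call was kept in 7 of 11 alternatives for *Ch25h* with amyloid. For *Fabp5* it was kept in 5 of 11 with *Nlrp3* deletion in DAM and in 7 of 9 with age. The other called results kept theirs in every alternative counted. No called value changed sign, while uncalled values near 0 did, such as *Abca1* for amyloid in DAM (-0.24 to 0.40 with 1 pair left out). Depth limits *Ch25h* most, with 6 to 187 UMIs in the microglia of a library.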
